A study of Homo sapiens with 6 samples.

Results

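The VPS13 and ATG2 genes encode very large proteins that carry lipids between membranes, and 6 of them were followed here in human retinal pigment epithelial cells with and without POLDIP2. They are VPS13A, VPS13B, VPS13C, VPS13D, ATG2A and ATG2B, taken by symbol from the 37902 genes of the deposited table, and all 6 were among the 14684 genes that passed a mean of at least 10 normalised counts over the 6 libraries. The set was chosen by the normalised counts of VPS13B, which were already known to be lower in POLDIP2 KO in these libraries, so its difference between the lines is described without a test. The question was whether the other 5 genes differ in the same way.

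ARPE-19 cells are an immortal human line of retinal pigment epithelium (RPE) origin, RPE being the layer beneath the photoreceptors that sustains them. WT is the parental line, with no edit. The POLDIP2 KO line was made from it by lentiviral delivery of SpCas9 with a guide to POLDIP2, and cells that survived puromycin were expanded. It is 1 line, with no isolation of clones described and no transduced control line among the libraries, so anything else that differs between it and its parent cannot be told apart from the loss of POLDIP2. Both lines were under regular maintenance and RNA was taken at day 3. There were 3 biological replicates per line, 6 libraries in all, and since it is not stated how the replicates were separated, p values measure the spread between these libraries, which may be technical in part.

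Proteins of this family are built as long rods with a groove that holds lipid tails, and they are thought to let lipids flow in bulk from one membrane to another at contact sites. VPS13A works where the endoplasmic reticulum meets mitochondria and lipid droplets, VPS13C where it meets late endosomes and lysosomes, and VPS13D at mitochondria and peroxisomes, while VPS13B sits at the Golgi. ATG2A and ATG2B supply lipid to the growing autophagosome. Inherited loss of VPS13B causes Cohen syndrome, in which retinal dystrophy is common, and loss of VPS13A, VPS13C or VPS13D causes disorders of the brain.

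Reads recovered from the normalised values summed to 31532797 to 45795509 per library. These are estimates of the reads from genes and not all reads sequenced. POLDIP2 itself stood at 0.255 of its WT mean, with normalised counts of 3919 to 4827 in WT libraries and 1063 to 1248 in POLDIP2 KO libraries, so each library followed its label. Of 14 RPE markers, 12 passed the expression filter, RPE65 (the isomerase of the visual cycle) was at 0 in every library and TYR (tyrosinase, for pigment) had 3 reads or fewer in each, so these cells lack some defining markers of native RPE. Limma called 0 of the 12 tested RPE markers, beside 0.170% of all genes. That share would amount to few of 12 genes, so nothing is read from the 0. Of the 12, 5 were higher and 7 lower in POLDIP2 KO. Only SERPINF1 had every POLDIP2 KO library below every WT library, and none had the reverse (8.33% without overlap, beside 10.9% of all genes). The POLDIP2 KO mean of SERPINF1 was 0.594 of its WT mean, with a limma adjusted p value of 0.822. The summed level of the 14 markers, in normalised counts, was 79928 to 95785 in WT libraries and 75582 to 104545 in POLDIP2 KO libraries. Most of that sum came from the keratin genes KRT8 (mean 39540 in WT) and KRT18 (mean 32125 in WT), so it says little of the other markers. Of 9 markers of leukocytes, endothelium, photoreceptors and glia, 3 were at 0 in every library and 7 had a mean under 10. The 2 above it were CD68, a lysosomal protein of many cell types, and CRX, and the summed level of the 9 was 1730 to 2244 in WT and 1899 to 2196 in POLDIP2 KO. CD68, with a mean of 1964 in WT and 1971 in POLDIP2 KO, made up most of that sum.

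VPS13B (ENSG00000132549) lies on the plus strand of chromosome 8 of GRCh38, from 99013266 to 99877580, a span of 864 kb. Its normalised counts were 3533, 2413 and 3587 in the WT libraries and 753, 693 and 929 in the POLDIP2 KO libraries, in the order of replicates 1, 2 and 3, which is kept throughout. All 3 POLDIP2 KO libraries lay far below all 3 WT libraries, and the lowest WT library was still 2.60 times the highest POLDIP2 KO library. The means were 3178 ± 663 in WT and 792 ± 123 in POLDIP2 KO (± SD, n = 3 libraries each), so WT was 4.01 times POLDIP2 KO. These values rest on 2405 to 3740 recovered reads per WT library and 612 to 936 per POLDIP2 KO library, well above the floor of 3 reads. VPS13B RNA was therefore reduced in POLDIP2 KO but clearly present.

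By replicate number, the log2 difference of VPS13B (POLDIP2 KO minus WT, on log2(normalised count + 1)) was -2.23, -1.80 and -1.95 for replicates 1, 2 and 3. The smallest of the 3 differences belonged to replicate 2, whose WT library was the low one. The log2 fold change over all libraries was -1.99, which ranked 146 from the lowest among the 14684 genes tested. In bulk RNA, less VPS13B RNA per cell and fewer cells that make it cannot be told apart. The table is summed to genes, so it does not show which transcripts of VPS13B were lower.

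**Figure D1:**
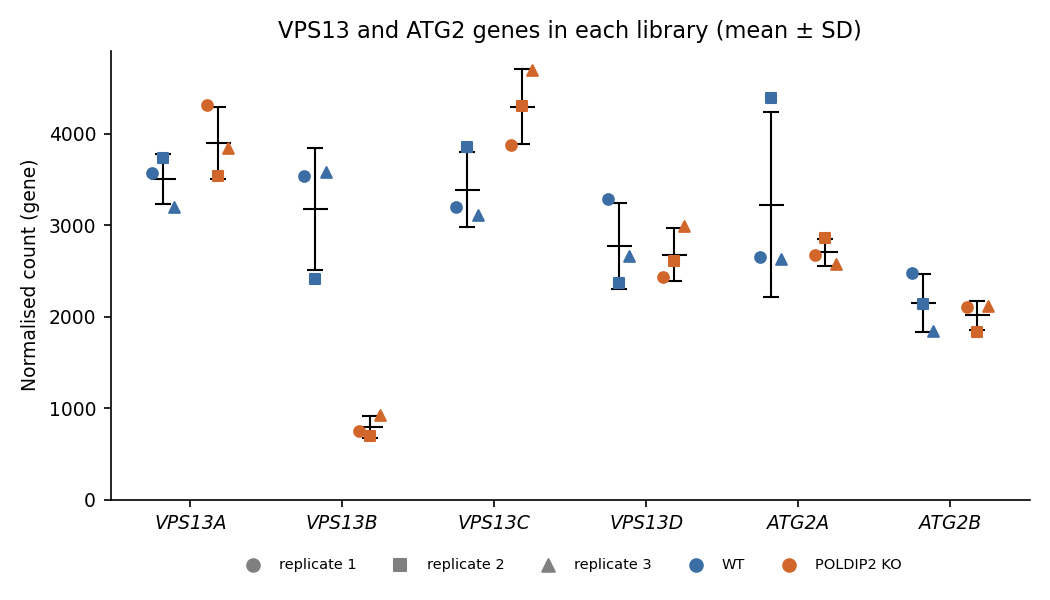
Normalised count (vertical axis) of each gene in the 3 WT (blue) and 3 POLDIP2 KO (orange) libraries, with symbols for the replicate number and bars for the mean ± SD. VPS13B lies at 2413 to 3587 in WT and 693 to 929 in POLDIP2 KO, and the other 5 genes lie at 1835 to 4701 over both lines.

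The other 5 genes were fitted with limma in the table of all 14684 genes, and a gene was called at a Benjamini-Hochberg adjusted p value under 0.05 with a fold change over 1.5. Over the whole table limma called 0.170% of genes (0.0817% higher and 0.0885% lower in POLDIP2 KO). None of the 5 was called by limma, and 1 of them (VPS13C) had an unadjusted p value under 0.05, which 6.48% of all genes had. On the recovered reads, the edgeR quasi-likelihood test called 0 of the 5 (0.116% of all genes), DESeq2 called 0 (1.66% of all genes) and DESeq2 with the replicate number as a block called 0 (2.53% of all genes). Limma with that block also called 0 of the 5 (0.204% of all genes). Their median log2 fold change was -0.04, beside -0.0003 over all genes tested.

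VPS13A (ENSG00000197969; chromosome 9 of GRCh38, 77177445 to 77421537, plus strand) had normalised counts of 3576, 3736 and 3203 in the WT libraries and 4318, 3535 and 3842 in the POLDIP2 KO libraries. The lines overlapped, with replicate 2 lower and replicates 1 and 3 higher in POLDIP2 KO. Its log2 fold change of 0.15 had a standard error of 0.116 and a 95% confidence interval of -0.12 to 0.43 (limma adjusted p = 0.9998).

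VPS13C (ENSG00000129003; chromosome 15, 61852389 to 62060473, minus strand) had normalised counts of 3204, 3855 and 3110 in the WT libraries and 3879, 4304 and 4701 in the POLDIP2 KO libraries. Each POLDIP2 KO library lay above each WT library, although the highest WT and the lowest POLDIP2 KO library were nearly level. VPS13C was the only one of the 5 whose lines did not overlap, as was the case for 10.9% of all genes tested (5.46% with POLDIP2 KO higher and 5.44% with it lower). The log2 fold change of 0.34 had a standard error of 0.127 and a 95% confidence interval of 0.04 to 0.64, with a limma p value of 0.0302 before and 0.671 after adjustment, so the difference did not pass. All 3 same-numbered differences of VPS13C were above 0, at 0.28, 0.16 and 0.60 on the log2 scale, a pattern shared by 17.0% of genes. Blocking on the replicate number gave VPS13C an adjusted p value of 0.340 in limma.

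VPS13D (ENSG00000048707; chromosome 1, 12230030 to 12512047, plus strand) had normalised counts of 3285, 2363 and 2660 in the WT libraries and 2431, 2610 and 2994 in the POLDIP2 KO libraries. All 3 POLDIP2 KO libraries lay inside the WT range. Its log2 fold change of -0.04 had a standard error of 0.151 and a 95% confidence interval of -0.40 to 0.32 (limma adjusted p = 0.9998), and its same-numbered differences went in both directions, from -0.43 in replicate 1 to 0.17 in replicate 3.

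For the autophagy pair, ATG2A (ENSG00000110046; chromosome 11, 64894546 to 64917209, minus strand) had normalised counts of 2647, 4396 and 2633 in the WT libraries and 2672, 2860 and 2577 in the POLDIP2 KO libraries. WT replicate 2 stood well above the other 5 libraries, which lay between 2577 and 2860. The log2 fold change of -0.21 had a standard error of 0.206 and a 95% confidence interval of -0.70 to 0.28 (limma adjusted p = 0.9998), and without WT replicate 2 it was 0.03 (95% confidence interval -0.24 to 0.30), so the sign rests on that library. With all libraries the interval of ATG2A is the only one of the 5 that reaches past a fall of 1.5-fold, which is -0.58 on the log2 scale.

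ATG2B (ENSG00000066739; chromosome 14, 96279195 to 96363341, minus strand) had normalised counts of 2477, 2140 and 1843 in the WT libraries and 2105, 1835 and 2113 in the POLDIP2 KO libraries. The lines overlapped almost fully. Its log2 fold change of -0.09 had a standard error of 0.138 and a 95% confidence interval of -0.41 to 0.24 (limma adjusted p = 0.9998). An exact two-sided permutation test of 3 libraries against 3, which cannot go below 0.1, gave 0.3 for VPS13A, 0.1 for VPS13C, 0.9 for VPS13D, 0.7 for ATG2A and 0.4 for ATG2B.

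The intervals set how much room these data leave. A fall of 1.5-fold lay outside the 95% confidence interval for VPS13A, VPS13C, VPS13D and ATG2B, and a rise of 1.5-fold lay outside it for VPS13A, VPS13D, ATG2A and ATG2B. For VPS13C the upper end was 1.56-fold. Within the lines, the standard deviation of the fit on the log2 scale ran from 0.131 for VPS13A to 0.305 for ATG2A. VPS13B had 0.276, a value higher than that of 58.2% of the genes tested, and its own spread was wider in WT (0.324) than in POLDIP2 KO (0.218).

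**Figure D2:**
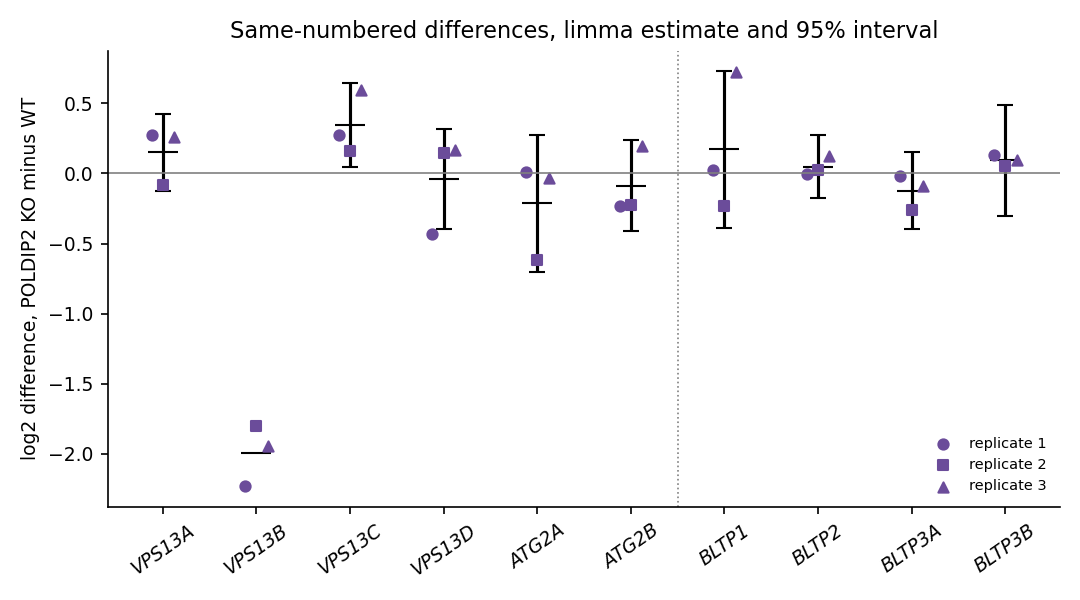
Log2 difference between POLDIP2 KO and WT (vertical axis) for the 6 genes and, right of the dotted line, 4 other bridge-like lipid transfer genes; symbols are the same-numbered differences, long bars the limma estimate and whiskers its 95% confidence interval (none is drawn for VPS13B, which was chosen for its fall). VPS13B lies at -2.23 to -1.80, and the intervals of the other 9 genes reach 0 or close to it, with a lowest end of -0.70 for ATG2A and a lower end of 0.04 for VPS13C.

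Levels of different genes can be compared only per length, so each normalised count was divided by the length of the union of the gene's exons in kb. In WT, ATG2A had the highest level per kb, 412 ± 129 (± SD, n = 3 libraries). It was followed by VPS13A with 174 ± 13.6 normalised counts per kb and VPS13C with 172 ± 20.6. VPS13B came next with 152 ± 31.7, then ATG2B with 151 ± 22.3 and VPS13D with 133 ± 22.7. ATG2A was separate from the rest in every WT library, while each of the other neighbours in this order overlapped. ATG2A was above 74.0% of the 13799 tested genes with an annotated length and the other 5 were above 44.7% to 51.4%. VPS13B was above 47.9%, so in WT it was near the middle of these tested genes.

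In POLDIP2 KO the order by level per kb was ATG2A (345 ± 18.4), VPS13C (218 ± 20.9), VPS13A (194 ± 19.6), ATG2B (142 ± 11.1), VPS13D (129 ± 13.8) and VPS13B (37.8 ± 5.88). ATG2A was again separate from VPS13C, the libraries of VPS13C and VPS13A overlapped, both lay above ATG2B, and ATG2B and VPS13D overlapped. VPS13B was in the last place, with every library below those of all other members. Its share of the summed level per kb of the 6 genes was 12.96% ± 3.75 in WT and 3.54% ± 0.46 in POLDIP2 KO. The summed level of the 6 genes was 1195 ± 121 normalised counts per kb in WT and 1065 ± 26.3 in POLDIP2 KO, and without VPS13B it was 1043 ± 151 and 1028 ± 20.5. The 2 sums of the other 5 genes differed by less than their spread in WT, but they join genes with higher and genes with lower means in POLDIP2 KO. VPS13A, VPS13C and VPS13D together gave 499, 495 and 445 per kb for WT libraries against 529, 520 and 574 for POLDIP2 KO. These sums did not overlap between the lines, and 10.9% of all single genes tested did not either. Their POLDIP2 KO mean was 1.13 times that of WT, while ATG2A and ATG2B together stood at 0.865 times. The ATG2 sums overlapped, and the highest was WT replicate 2 (711), where ATG2A stood apart. Neither difference was tested. Of the VPS13 genes in the sum, only VPS13C had lines without overlap, and the POLDIP2 KO mean of VPS13D was 0.967 of its WT mean.

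**Figure D3:**
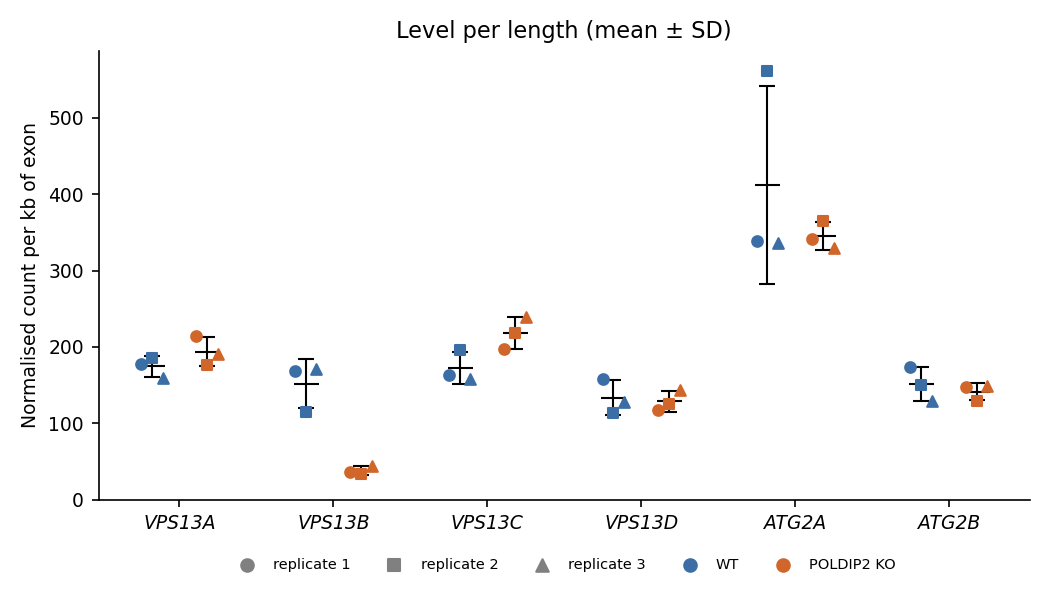
Normalised count per kb of exon (vertical axis) of the 6 genes in the WT (blue) and POLDIP2 KO (orange) libraries, with the mean ± SD. In POLDIP2 KO, VPS13B is at 33.1 to 44.4 per kb, under the lowest library of every other member.

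Other bridge-like proteins of the same build, encoded by BLTP1, BLTP2, BLTP3A and BLTP3B, were taken as the nearest comparison. In normalised counts, BLTP1 averaged 1834 ± 432 in WT libraries and 2070 ± 486 in POLDIP2 KO (± SD, n = 3 libraries each, as for all means given with ±). BLTP2 averaged 13320 ± 466 and 13788 ± 554. BLTP3A averaged 2413 ± 292 and 2207 ± 75.7, and BLTP3B averaged 2021 ± 331 and 2151 ± 305. The lines overlapped for all 4. Their log2 fold changes were -0.12 to 0.17. None was called by limma (0.170% of all genes), edgeR (0.116%) or DESeq2 (1.81%), and 0 of the 4 had an unadjusted limma p value under 0.05 (6.48% of all genes). All 4 intervals excluded a fall of 1.5-fold and 3 of them excluded a rise of that size, while the upper end for BLTP1 was 1.66-fold.

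VPS13B was also compared with the genes around it. Within 2 Mb of VPS13B on either side the annotation places 118 genes, of which 53 are in the table and 20 were tested. None of the 20 was called by limma (0.170% of all genes), edgeR (0.116%) or DESeq2 (1.81%). At an unadjusted limma p value under 0.05 there were 0 (6.48% of all genes), and 0 had lines without overlap (10.9% of all genes). These shares would amount to few of 20 genes, so nothing is read from the counts of 0. Their log2 fold changes ran from -0.43 for ERICH5 to 0.21 for RIDA, with a median of -0.02.

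On the side before the start of VPS13B, the nearest tested gene was STK3, a kinase of the Hippo pathway, 70.4 kb away, at 764 ± 93.8 normalised counts in WT libraries and 667 ± 109 in POLDIP2 KO libraries (± SD, n = 3 libraries each; log2 fold change -0.20, 95% confidence interval -0.60 to 0.19). On the other side COX6C, a subunit of cytochrome c oxidase on the opposite strand, overlaps the last 4381 bases of the annotated VPS13B gene. COX6C had normalised counts of 2514, 2132 and 2098 in the WT libraries and 2212, 1964 and 2369 in the POLDIP2 KO libraries. The COX6C lines overlapped, and the estimate of -0.04 on the log2 scale had a 95% confidence interval of -0.33 to 0.25. The next tested gene beyond it was FBXO43 at 256 kb, with a log2 fold change of -0.18. Of the 6 tabulated genes that overlap any of the 6 members, COX6C was the only one with a mean of at least 10, and the other 5 are processed pseudogenes inside VPS13B that had 1 read in all between them. Libraries were stranded, but whether the counting used strand is not given in the sources used here.

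**Figure D4:**
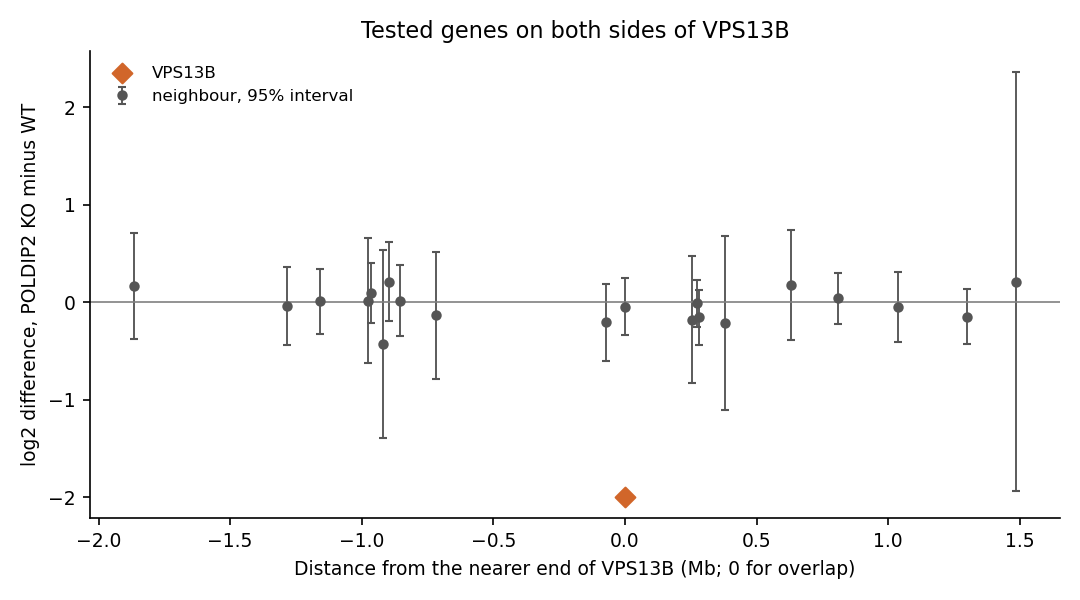
Log2 difference between POLDIP2 KO and WT (vertical axis) against the distance from the nearer end of VPS13B in Mb, for the 20 tested neighbours (grey, with 95% confidence interval) and VPS13B (orange diamond). The neighbours' estimates lie between -0.43 and 0.21 and VPS13B at -1.99.

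VPS13B is a very long gene. Among the other 205 tested genes that span at least 500 kb, limma called 0 (0.170% of all genes) and edgeR called 0 (0.116%). DESeq2 called 8 of the 205 (3.90%, beside 1.81% of all 14684 genes) and DESeq2 with the replicate block called 14 (6.83%, beside 2.68%). At an unadjusted limma p value under 0.05 there were 19 (9.27%, beside 6.48% of all genes), of which 9 were higher and 10 lower in POLDIP2 KO, and the lines did not overlap for 24 (11.7%, beside 10.9%). The median log2 fold change of the 205 was -0.01.

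Partners of the family and related genes were taken as lists, with 97 of 98 matched genes tested over 6 lists. The lists include the BLTP genes and other lipid transfer genes, so not all of the 97 are partners. Limma called 0 of the 97 (0.170% of all genes), and on the recovered reads edgeR called 0 (0.116%) and DESeq2 called 0 (1.81%). DESeq2 with the replicate number as a block called 1 (1.03%, beside 2.68% of all genes). These shares would amount to few of 97 genes, so nothing is read from the counts of calls. At an unadjusted limma p value under 0.05 there were 2 genes (2.06%, beside 6.48% of all genes), and the lines did not overlap for 5 genes (5.15%, beside 10.9%). Those 5 were RHOT2, VPS39 and USO1, higher in POLDIP2 KO, and STARD4 and NRBF2, lower, of which VPS39 was named after its values were seen.

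Lipid scramblases stand at the ends of the bridges and spread the arriving lipid over both leaflets. Of 5 tested (XK, ATG9A, ATG9B, TMEM41B and VMP1), 1 was higher and 4 were lower in POLDIP2 KO, with a median log2 fold change of -0.02. The largest estimate was that of ATG9B, a homologue of ATG9A, which had normalised counts of 5.67, 51.2 and 3.13 in the WT libraries and 0, 3.26 and 1.99 in the POLDIP2 KO libraries. Its lines overlapped, its WT mean rests on replicate 2, and the 95% confidence interval of its log2 fold change ran from -5.03 to 0.48. XK, the partner of VPS13A, averaged 351 ± 122 in WT and 378 ± 72.3 in POLDIP2 KO libraries.

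Adaptors place the bridges on their organelles. Of 15 tested, 7 were higher and 8 lower, with a median log2 fold change of -0.08. RHOT2, the mitochondrial GTPase Miro2, which with its paralogue recruits VPS13D, had normalised counts of 2318, 2435 and 2271 in the WT libraries and 2932, 2744 and 2614 in the POLDIP2 KO libraries. Its lines did not overlap, yet the log2 fold change of 0.24 (95% confidence interval 0.01 to 0.47) did not pass, with a limma adjusted p value of 0.746. RAB6B, a Golgi GTPase, averaged 136 ± 22.1 in WT and 106 ± 33.3 in POLDIP2 KO libraries, with lines that overlapped.

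Of 30 other lipid transfer genes of contact sites, 11 were higher and 19 lower, with a median log2 fold change of -0.02. STARD4, which carries cholesterol, had normalised counts of 3481, 3281 and 2916 in the WT libraries and 2490, 1670 and 2325 in the POLDIP2 KO libraries. Every POLDIP2 KO library of STARD4 lay below every WT library. Its log2 fold change of -0.59 had a standard error of 0.169 and a 95% confidence interval of -0.99 to -0.19 (limma adjusted p = 0.415), and it was the gene that DESeq2 called with the replicate block (adjusted p = 0.0135). GRAMD1C, another sterol carrier, averaged 51.9 ± 27.7 in WT and 99.6 ± 28.2 in POLDIP2 KO libraries, with lines that overlapped and a limma adjusted p value of 0.851.

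Of 27 tested genes of autophagosome formation, in which ATG2A and ATG2B act, 7 were higher and 20 lower, with a median log2 fold change of -0.04 and limma adjusted p values from 0.955 up. NRBF2, a subunit of the autophagy lipid kinase complex, averaged 1021 ± 93.0 in WT and 882 ± 35.1 in POLDIP2 KO libraries. ATG7, the activating enzyme of LC3 conjugation, had 286, 205 and 585 in WT and 386, 421 and 778 in POLDIP2 KO, with lines that overlapped. Its same-numbered log2 differences were 0.43, 1.04 and 0.41, all above 0, a pattern shared by 17.0% of genes. Its limma p value before adjustment was 0.190, or 0.0144 with the replicate block, a setting in which 1625 of 14684 genes were under 0.05. The adjusted limma p values of ATG7 were 0.9998 and, with the block, 0.278. MAP1LC3B, which encodes the autophagosome marker LC3B and was named after its values were seen, had 4988 ± 602 and 4902 ± 267.

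At the Golgi, where VPS13B acts, 8 of 16 tested genes for golgins and stacking proteins were higher and 8 lower, with a median log2 fold change of -0.002. USO1, a tethering protein for vesicles that enter the Golgi, had normalised counts of 5522, 5317 and 5493 in the WT libraries and 5781, 6599 and 7579 in the POLDIP2 KO libraries. Its log2 fold change of 0.28 (95% confidence interval -0.003 to 0.56, limma adjusted p = 0.782) did not pass. GOLGA2, the golgin GM130, averaged 1810 ± 235 in WT and 1522 ± 317 in POLDIP2 KO libraries, with lines that overlapped.

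**Figure D5:**
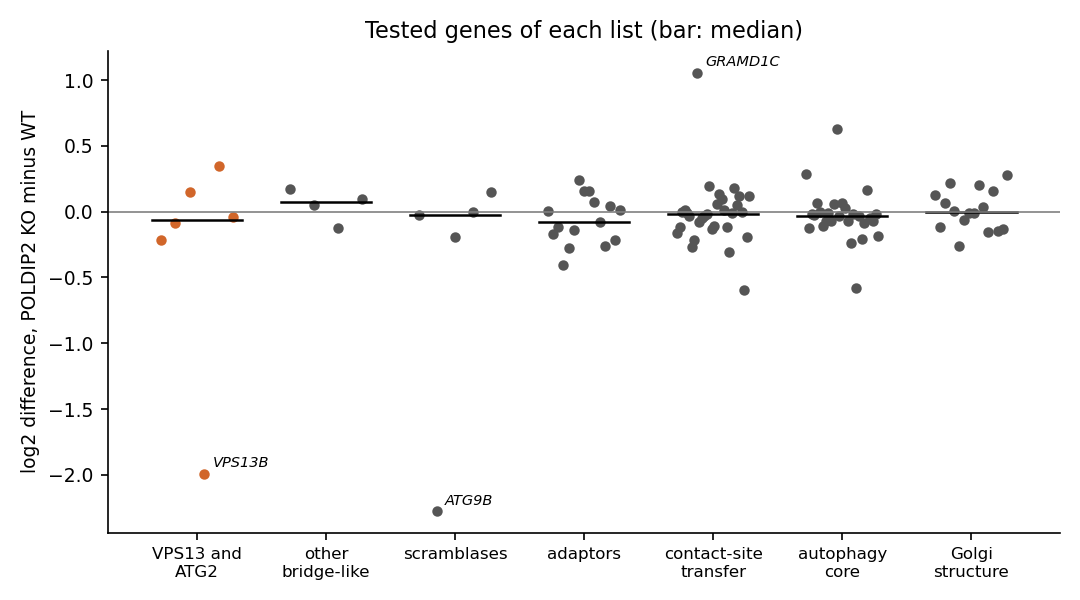
Log2 difference between POLDIP2 KO and WT (vertical axis) of every tested gene in the VPS13 and ATG2 set (orange) and in 6 lists of related genes (grey), with the median as a bar; names mark genes beyond 1 in either direction. The list medians lie between -0.08 and 0.07, and the low point of ATG9B rests on few reads.

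The genes whose values were most like those of VPS13B over the 6 libraries were found by Pearson correlation on log2(normalised count + 1) among all tested genes. They were ZNF350 (0.991), ENSG00000235307 (0.990; no symbol in GENCODE release 44), SLC38A3 (0.988), ZNF681 (0.988) and PLBD1 (0.987). With 6 libraries in 2 lines these correlations mostly restate the difference between the lines, which was the basis of the choice, and they share library and depth. ZNF350, a zinc finger gene on chromosome 19, had normalised counts of 340, 304 and 373 in the WT libraries and 125, 102 and 124 in the POLDIP2 KO libraries, so like VPS13B it was lowest in replicate 2 of either line. PLBD1, on chromosome 12, had a mean of 218 in WT and 53.5 in POLDIP2 KO. Among the members, the correlation with VPS13B was -0.84 for VPS13C, -0.62 for VPS13A, 0.20 for ATG2A, 0.29 for VPS13D and 0.32 for ATG2B, and the member most like it, ATG2B, ranked 3761 of 14683 genes.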

How the data were processed

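The authors deposited 1 table of normalised counts, a signal per gene and library: Salmon 1.8 estimated transcript levels against GRCh38, tximport collapsed them to genes, and DESeq2 1.34.0 scaled each library by its size factor. The annotation release is not given in the sources used here. All columns were used (0 left out). Of the 37902 genes, 34152 have a symbol in GENCODE release 44, which also gave positions and exon lengths.

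Dividing a column by its value for 1 read returned whole numbers for 100% of values (tolerance 0.001). They are called recovered reads here, but they rest on Salmon's estimates and are not reads counted directly. In WT replicate 2 and POLDIP2 KO replicate 3 that value is close to 1, so the test of wholeness says less there. Genes with a mean of at least 10 (14684) were tested on log2(normalised count + 1) in R 4.3.3 using limma 3.58.1 (lmFit, then eBayes with trend) and Benjamini-Hochberg adjustment. The added count understates the change of low genes. A call needed both a fold change over 1.5 and adjusted p under 0.05. Intervals are limma's at 95%. Recovered reads were tested with edgeR 4.0.16 and DESeq2 1.42.0. Further alternatives are given in the closing section. The limma, edgeR and DESeq2 fits without the replicate block were run on simulated counts with known changes, and the other steps were not.

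The members, lists, tests and alternatives were chosen with earlier results of these data known. Named were the members, the other bridge-like genes, in each list the genes called or else the smallest limma p value in each direction, the neighbours nearest to VPS13B on each side, and the 5 genes most correlated with VPS13B; the ends of the neighbours' range were added after. Same-numbered libraries, centred within each line, correlated at 0.315, 0.137 and 0.129, all above 0.1 (differently numbered libraries: -0.259 to 0.147, the highest, WT 3 with POLDIP2 KO 2, above 2 of those 3), so the replicate number was used as a block in an alternative. Figures were made with Python 3.11.15 and matplotlib 3.10.9.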

Additional observations from a re-analysis of the deposited data

How the results depend on the processing

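None of the 5 genes other than VPS13B was called under any of the 18 alternatives. With all libraries (an added count of 0.5 or 5, a minimum mean of 50 or none, libraries recentred or quantile normalised, robust or untrended eBayes, the replicate block, edgeR, and DESeq2 with and without the block), the log2 fold change stayed at -2.01 to -1.99 for VPS13B, 0.14 to 0.16 for VPS13A, 0.33 to 0.35 for VPS13C, -0.05 to -0.04 for VPS13D, -0.26 to -0.21 for ATG2A and -0.10 to -0.08 for ATG2B, and the lowest adjusted p value of the 5 was 0.185 (VPS13C, DESeq2 with the block). On leaving out single libraries, the ranges were -2.18 to -1.89 for VPS13B, 0.08 to 0.22 for VPS13A, 0.28 to 0.44 for VPS13C, -0.15 to 0.090 for VPS13D, -0.34 to 0.032 for ATG2A and -0.19 to 0.020 for ATG2B, so the sign of the last 3 changed, for VPS13D to 0.090 without WT replicate 1 and 0.027 without POLDIP2 KO replicate 1, for ATG2A to 0.032 on omitting WT replicate 2 and for ATG2B to 0.020 on omitting WT replicate 1. In limma, the replicate block left estimates as they were and changed no call among the named genes; over the whole table it called 30 genes.

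Limma called 25 genes over the whole table. The count was 16 with a mean of at least 50, 270 with DESeq2, 394 with DESeq2 and the block, and 0 to 5 with a library left out (0 without replicate 2 or 3 of either line, 5 without WT replicate 1 and 4 on omitting POLDIP2 KO replicate 1, with 701 to 1081 genes at an unadjusted p value under 0.05), where fewer libraries were fitted; for the others the cause was not tested. In the lists, DESeq2 with the block called 1 gene, STARD4, and every other setting called 0; among the neighbours every setting called 0. With the longest coding transcript as length, the share of the summed WT level per kb was 16.3% for VPS13C and 10.6% for ATG2B, against 14.4% and 12.7% with the union of exons, VPS13C stood above VPS13A and VPS13D above ATG2B, and the share of VPS13B was 14.8%. With 3 libraries per line, changes under about 1.5-fold are within the intervals of many genes. Of the 97 list genes, 67 had an interval that excluded both a fall and a rise of 1.5-fold, and for the rest at least 1 of these was not excluded.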
